A study of Mus musculus with 11 samples.

Results

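The comparison described here measured what the intracellular domain of Notch2 (NICD2) did to gene expression in mouse liver when it was added to the intracellular domain of Notch1 (NICD1). It rests on 5 of the series' 11 arrays, 2 from livers given both domains (NICD1&2) and 3 from livers given NICD1. All were liver RNA of male C57Bl6/J mice, 8 weeks old at injection, taken 5 days after intraperitoneal injection of adeno-associated virus 8 (AAV8), a vector that reaches hepatocytes. The NICD1 group received 3e+11 viral genomes of the NICD1 vector and 3e+11 of a vector for green fluorescent protein (GFP). The NICD1&2 group received 3e+11 of the NICD1 vector and 3e+11 of the NICD2 vector, and no GFP vector. Adding NICD2 therefore also meant removing GFP, and these cannot be told apart. Of the other 6 arrays, 3 were from livers given GFP alone (6e+11) and 3 from livers given NICD2 with GFP (3e+11 each). The CMV promoter drove every vector and does not limit expression to one cell type. Nothing in the labels says that each replicate came from its own mouse, so the p-values measure the spread between these samples. The study states for its experiments in general that they used at least 3 mice per group.

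Notch receptors are cut after a ligand on a neighbouring cell binds them. The freed intracellular domain enters the nucleus, joins the DNA-binding protein RBPJ and a Mastermind coactivator, and turns on genes such as Hes1, Hey1 and Nrarp. Expressing the domain alone imitates an active receptor without a ligand. In the liver, Notch signalling is best known for leading progenitor cells and hepatocytes towards the bile duct fate, with Sox9 and Spp1 among the genes involved. The p53 protein, whose target genes appear below, halts the cell cycle through Cdkn1a (p21) and favours cell death through Bax and related genes.

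The sequences shown are the 250 bases before the transcription start of 5 genes that the results turn on, from RefSeq's promoter table on GRCm38.p6, each read 5′ to 3′ along its gene. Wfdc3 and Krt79 are shown because they were the named genes whose increase passed the adjusted threshold, and capitals mark the RBPJ core TGGGAA or its reverse complement.
Wfdc3 (chr2:164743268-164743517, minus strand): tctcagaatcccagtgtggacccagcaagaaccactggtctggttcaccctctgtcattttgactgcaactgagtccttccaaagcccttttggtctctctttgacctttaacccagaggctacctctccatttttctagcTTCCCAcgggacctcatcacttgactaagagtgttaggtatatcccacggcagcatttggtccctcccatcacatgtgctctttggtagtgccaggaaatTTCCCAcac
Krt79 (chr15:101940325-101940574, minus strand): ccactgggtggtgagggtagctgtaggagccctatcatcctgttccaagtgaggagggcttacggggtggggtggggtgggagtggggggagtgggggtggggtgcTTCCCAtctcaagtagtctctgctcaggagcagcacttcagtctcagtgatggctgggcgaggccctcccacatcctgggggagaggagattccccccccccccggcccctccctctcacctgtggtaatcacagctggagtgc
Cdkn1a and Ccng1 stand for the p53 targets, and capitals mark matches to the p53 half-site, a motif chosen after the values of those genes were seen. The table gives Cdkn1a a second start, whose window (chr17:29093519-29093818) held no p53 half-site and is not printed. The other genes shown have 1 start each.
Cdkn1a (chr17:29090729-29090978, plus strand): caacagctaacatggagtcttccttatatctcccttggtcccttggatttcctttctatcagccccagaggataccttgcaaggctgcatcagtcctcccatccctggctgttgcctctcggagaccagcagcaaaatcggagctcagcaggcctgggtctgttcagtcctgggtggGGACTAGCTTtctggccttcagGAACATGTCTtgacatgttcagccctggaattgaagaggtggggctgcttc
Ccng1 (chr11:40755287-40755536, minus strand): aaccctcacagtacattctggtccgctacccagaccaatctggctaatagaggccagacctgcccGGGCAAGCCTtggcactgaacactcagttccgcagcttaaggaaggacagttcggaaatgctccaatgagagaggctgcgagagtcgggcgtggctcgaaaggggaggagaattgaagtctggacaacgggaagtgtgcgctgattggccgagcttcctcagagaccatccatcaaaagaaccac
For the metallothionein Mt2, capitals mark the cores of the metal response element, TGCACNC and TGCGCNC on either strand.
Mt2 (chr8:94172368-94172617, plus strand): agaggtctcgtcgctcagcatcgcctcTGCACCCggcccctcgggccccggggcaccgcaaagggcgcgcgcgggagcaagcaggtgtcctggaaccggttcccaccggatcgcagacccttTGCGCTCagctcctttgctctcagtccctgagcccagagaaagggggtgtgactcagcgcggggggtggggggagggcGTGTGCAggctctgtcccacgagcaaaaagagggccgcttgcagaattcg
The RBPJ cores of Wfdc3 began 109 and 9 bases before the start, and both belonged to the longer form GTGGGAA on the other strand. Among all 32851 promoter windows of 300 bases (250 before and 50 after the start), searched on both strands, 25.6% held TGGGAA and 6.38% held GTGGGAA. A p53 half-site was in 8.36% and a metal response element core in 25.7%. By gene, TGGGAA was in 28.3% of the table's genes and a p53 half-site in 9.55%. TGGGAA was in 7 of the 11 genes of the table that NICD2 changed against GFP (63.6%), and in 14 of the 22 listed p53 targets found there (63.6%), so its share was the same in both sets. A p53 half-site was in 11 of those 22 p53 targets, and in 12 of their 32 windows (37.5%). The Nrarp window held no TGGGAA. A second RBPJ core of Krt79 lay after its start and is not shown. The matches describe the sequence and are not measured binding.

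Levels are given as log2 of the processed signal minus the array's 75th percentile, so that 0 is that percentile, and a difference of 1 is a doubling of the signal. Of 56605 probes, 36055 were tested, those whose signal the scanner software marked as well above background on 2 or more arrays of the series, among them 24039 with a gene name for 16633 genes. The median SD of a probe was 0.173 among the NICD1 arrays and 0.190 among the NICD1&2 arrays. The NICD1&2 arrays had the lowest 75th percentiles of the series, 7.23 and 7.14 on the log2 scale, against 7.41 to 7.63 in NICD1. The median difference over all probes was +0.10, and it was higher among the dimmest and the brightest probes (0.16 and 0.15, of 4 groups of probes of equal size ordered by level) than between them (0.07 and 0.03). It was 0.0044 after quantile normalization, so a direction given below is relative to this shift. Its part in single differences was not tested.

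Hepatocyte, macrophage, stellate and sinusoidal endothelial markers were all well above background on the 5 arrays, as a liver sample should have. The 6 hepatocyte markers summed to between 11.59 and 11.89 (log2) in NICD1 and to 11.94 and 11.98 in NICD1&2. Albumin (Alb) stood at 9.95, 10.29 and 9.94 in NICD1 and at 10.35 and 10.37 in NICD1&2. Hnf4a, a master regulator of hepatocyte genes, stood at 7.58, 7.71 and 7.74 against 7.59 and 7.45. These 2 genes differed by +0.30 ± 0.14 (SE) for Alb (adjusted p = 0.417) and by -0.16 ± 0.10 for Hnf4a (adjusted p = 0.51), and that of Alb turned to -0.03 after quantile normalization. Of 38 hepatocyte genes 30 were higher and none was altered, with a median of 0.25. Over all 16633 genes 11158 were higher, 1.61% altered and higher and 0.619% altered and lower. The probes for Notch1 and Notch2 have no stated position, so they cannot show whether the vectors' domains were made. Notch1 differed by -0.06 ± 0.32 and Notch2 by -0.30 ± 0.11 (adjusted p = 0.946 and 0.368).

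A probe was taken as altered, after the study's definition, where P was under 0.15 before adjustment and the fold change over 1.8. By that measure, 975 of 36055 probes (2.7%) were altered between NICD1&2 and NICD1, 569 higher and 406 lower, with 521 gene names among them. After Benjamini-Hochberg adjustment over all probes, 5 passed 0.05 (0.0139%), 25 passed 0.15, and 4486 had an unadjusted p under 0.05 (limma). The median adjusted p of the altered probes was 0.379. The measure makes no correction for the number of probes tested, so altered describes a probe's measured difference and is no evidence by itself that the probe changed. The share of altered probes that were higher was 58.4%, but 35.9% after quantile normalization and 44.2% when the percentile was taken over probes detected on every array, so the balance of directions turned with the scaling. Levels near background made up much of the altered set. In 202 of the 569 higher probes no NICD1 array was well above background, and in 262 of the 406 lower ones no NICD1&2 array was. The groups did not overlap for 30.7% of all probes. The 2 slides can each give the comparison, 1 NICD1&2 array against 1 NICD1 array on slide 1 and 1 against 2 on slide 2, and the differences within them correlated at r = 0.156 across probes, which are not independent replicates. With slide as a block 8 probes passed the adjusted threshold and 1091 were altered. The count of calls moved when single arrays were left out. It was 205 without NICD1&2 replicate 1 and 0 without NICD1&2 replicate 2, fits in which the 1 array left is assumed to vary like those of the other groups. It was 1, 0 and 2 without NICD1 replicates 1, 2 and 3, 9 and 3 without GFP replicates 1 and 3, and 2, 1 and 1 without NICD2 replicates 1, 2 and 3. The altered count was 2087 without NICD1&2 replicate 1 and between 945 and 1325 without any other array.

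**Figure D1:**
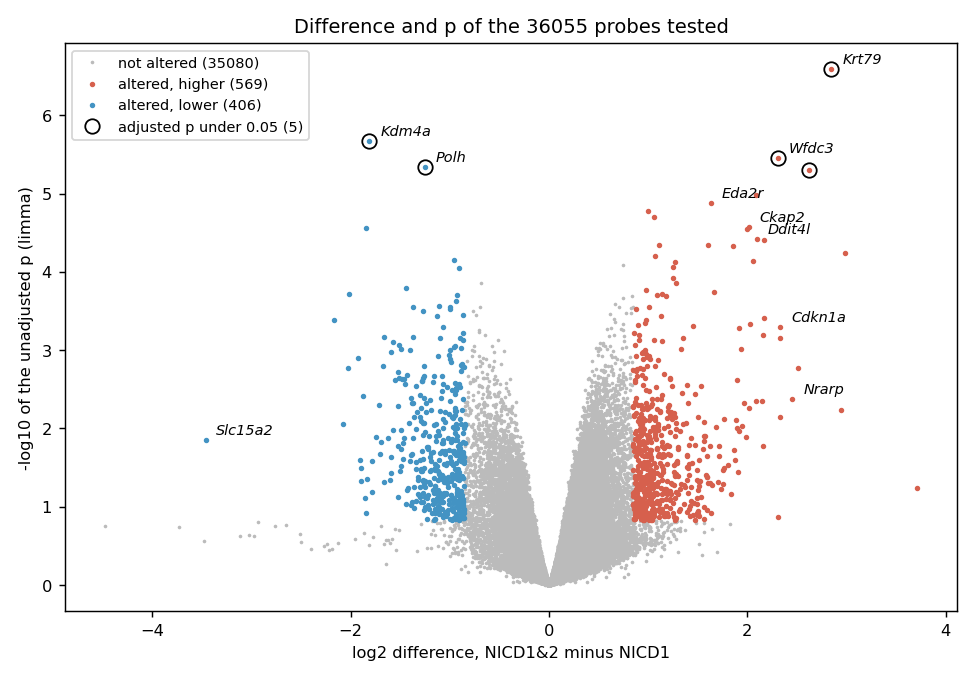
Each point is 1 of the 36055 probes, with the log2 difference (NICD1&2 minus NICD1) on the horizontal axis and -log10 of limma's unadjusted p on the vertical axis. Red and blue mark the 569 higher and 406 lower altered probes, black rings the 5 that passed an adjusted p of 0.05, and Krt79 stands highest.

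The genes that rose past the adjusted threshold were Krt79 and Wfdc3. Krt79, a keratin of hair follicle openings and sebaceous ducts, stood at -2.79, -2.28 and -2.31 in NICD1 and at 0.23 and 0.55 in NICD1&2. It rose by 2.85 ± 0.21 (SE) on the log2 scale (adjusted p = 0.0093), 7.21-fold. Its increase was of like size within each slide, 3.02 and 2.84. Wfdc3, a secreted whey acidic protein domain protein of the protease inhibitor kind, stood at -1.24, -0.95 and -1.14 in NICD1 and at 0.89 and 1.51 in NICD1&2. It rose by 2.31 ± 0.23 (adjusted p = 0.036), and its second probe differed by 2.06 ± 0.30 (adjusted p = 0.123). In both genes every NICD1&2 array lay above every NICD1 array, and the difference kept its direction under every alternative. Its size was smaller after normexp background correction with quantile normalization, 1.67 for Krt79 and 1.67 for Wfdc3. The call itself was less stable. The adjusted p of Krt79 ranged from 8.95e-05 to 0.305 over the alternatives, and the call was lost without NICD1&2 replicate 2 (0.305) or NICD1 replicate 2 (0.0506), with the replicate block (0.0745), in the unmoderated model (0.121) and with the 5 compared arrays alone (0.177). That of Wfdc3 ranged from 0.000543 to 0.364, and the call was lost without any 1 of the 3 NICD1 arrays (0.124 to 0.161), any 1 of the 3 NICD2 arrays (0.0705 to 0.111), GFP replicate 3 (0.0578) or NICD1&2 replicate 2 (0.328). It was lost too with no filter, array weights, the replicate block, the unmoderated model or the 5 arrays alone (0.082 to 0.364).

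The other calls were of probes at the edge of detection. An unnamed probe (A_55_P2718294) was not well above background on any NICD1 array and was so on both NICD1&2 arrays, at least 1.79-fold higher (adjusted p = 0.036). No GFP or NICD2 array had it well above background either, so it entered the tests only through the group where it was high and had to differ, and its adjusted p supports nothing. A probe of Polh, a DNA polymerase that copies past ultraviolet damage, was well above background on all 3 NICD1 arrays and on neither NICD1&2 array, at least 1.22-fold lower (adjusted p = 0.036). The more strongly detected Polh probe differed by -0.39 (adjusted p = 0.538). A probe of the histone demethylase Kdm4a was detected on 1 NICD1 array and no NICD1&2 array, and the stronger Kdm4a probe differed by +0.21 (adjusted p = 0.420). Neither gene's stronger probe passed the threshold.

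**Figure D2:**
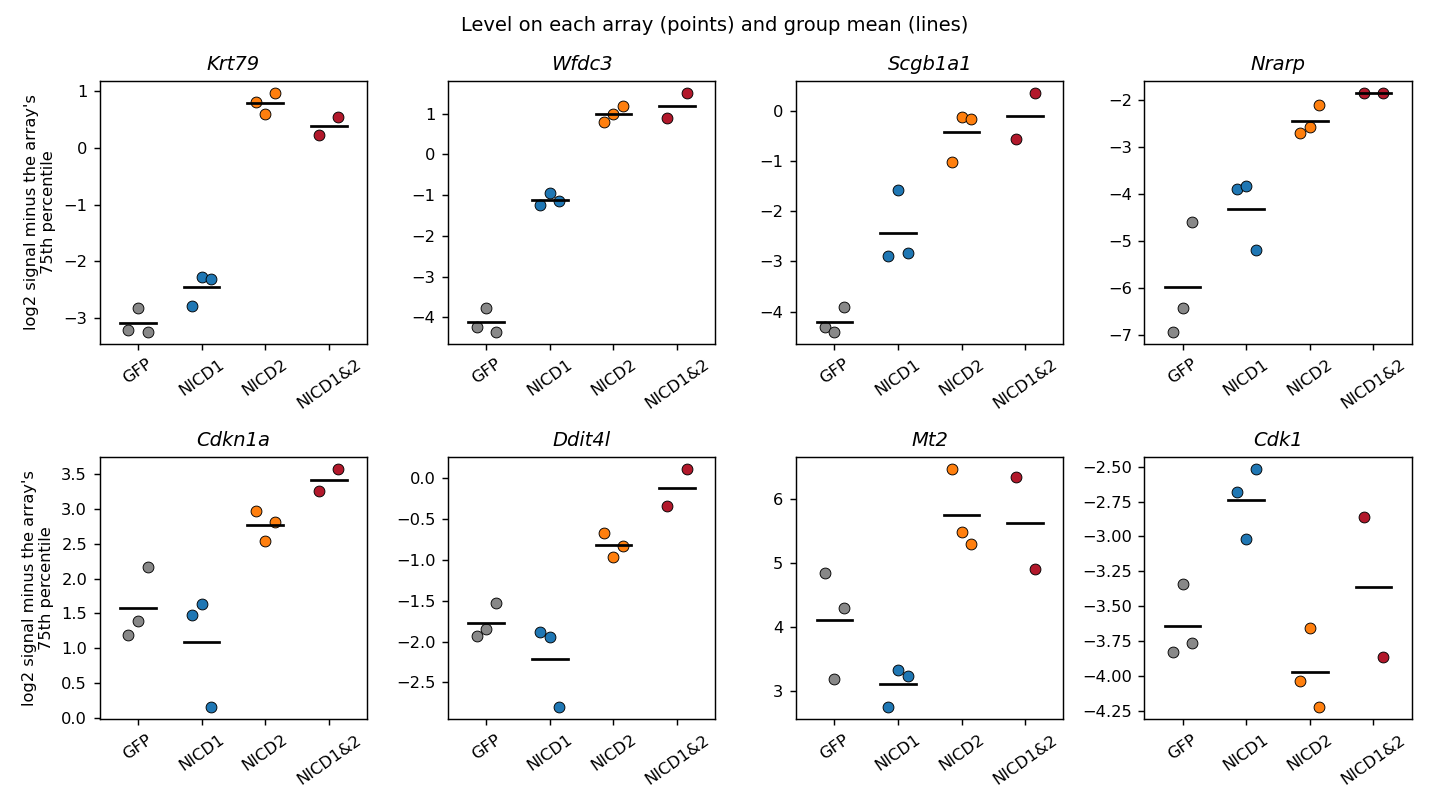
The log2 signal minus the array's 75th percentile is shown for 8 genes on all 11 arrays, points for arrays and lines for group means. Krt79, Wfdc3, Scgb1a1, Nrarp, Cdkn1a, Ddit4l and Mt2 lay higher on both NICD1&2 arrays than on any NICD1 array, whereas the groups overlapped for Cdk1.

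Most p53 target genes had higher levels in NICD1&2 than in NICD1. All 30 listed genes were tested, 29 were higher, and the median difference was 0.64, against 0.11 over all genes, of which 11158 of 16633 were higher. This list too was chosen with earlier results of these data known, so its counts are a description. Among the 30, 10 were altered, all higher, where 1.61% of all genes were altered and higher and 0.619% altered and lower. The 2 groups of arrays did not overlap, in the higher direction, for 20 of the 30, against 24.3% of all genes. No p53 target passed the adjusted threshold, the lowest adjusted p being 0.069 for Eda2r. Some passed under other settings, namely Ddit4l, Eda2r and Tnfrsf10b with the filter on all 11 arrays, those 3 and Ccng1 after normexp, and those 3 and Bax without NICD1&2 replicate 1. The median was 0.51 within slide 1 and 0.74 within slide 2. It was 0.51 after quantile normalization, with 26 higher and 8 altered, and 6 were altered after normexp background correction. The count of altered members was 8 without NICD1 replicate 3, 8 without NICD1&2 replicate 2 and 12 without NICD1&2 replicate 1.

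Cdkn1a, the cyclin-dependent kinase inhibitor p21, was the target with the highest difference. Its level was 1.48, 1.63 and 0.15 in NICD1 and 3.26 and 3.58 in NICD1&2. The third NICD1 array was the lowest of all 11 for this gene, and both NICD1&2 arrays were the highest. The difference was 2.34 ± 0.44 (SE, adjusted p = 0.254), and the exact two-sided permutation p was 0.1, the smallest that 3 arrays against 2 can give. Without NICD1 replicate 3 it was 1.87, within slides 1.78 and 2.69, and by a second, dimmer probe 1.22 (adjusted p = 0.327). Cdkn1a stood at 1.19, 1.39 and 2.17 in GFP and at 2.97, 2.54 and 2.82 in NICD2.

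The other altered p53 targets covered growth arrest, death and repair. Ddit4l, an inhibitor of mTOR signalling, stood at -1.89, -1.95 and -2.81 in NICD1 and -0.35 and 0.12 in NICD1&2 (2.10 ± 0.28, adjusted p = 0.099). Phlda3, an inhibitor of Akt, stood at 2.92, 2.79 and 1.55 against 4.21 and 4.69 (2.03 ± 0.38, adjusted p = 0.250). In both genes NICD1 replicate 3 was again the lowest array. Eda2r, a receptor of the TNF receptor family, stood at -1.71, -1.13 and -1.63 against 0.04 and 0.24 (1.63 ± 0.19, adjusted p = 0.069), and its second probe differed by 0.72. The death receptor Tnfrsf10b stood at -1.72, -1.94 and -2.06 against -0.51 and -0.09 (1.60 ± 0.22, adjusted p = 0.099), and its dimmer probe differed by 0.96. These receptors were lower on every NICD1 array than on both NICD1&2 arrays by more than 1 log2 unit. Gtse1, which holds p53 in check in G2, differed by 1.66, Psrc1, a spindle protein, by 1.54, and Polk, a translesion polymerase, by 1.02. Bax, which opens the mitochondrial outer membrane in apoptosis, stood at 3.82, 4.24 and 3.77 against 4.49 and 5.19 and differed by 0.89, but by 0.54 without NICD1&2 replicate 2, which is not altered. The cyclin Ccng1 differed by 0.86. Mdm2, the ligase that degrades p53, stood at 4.43, 4.58 and 4.18 against 4.97 and 5.50, and its difference of 0.84 lay just under the fold threshold. At the other end, Pmaip1 (Noxa), which promotes death, differed by -0.20 and Perp, a membrane protein, by 0.11.

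**Figure D3:**
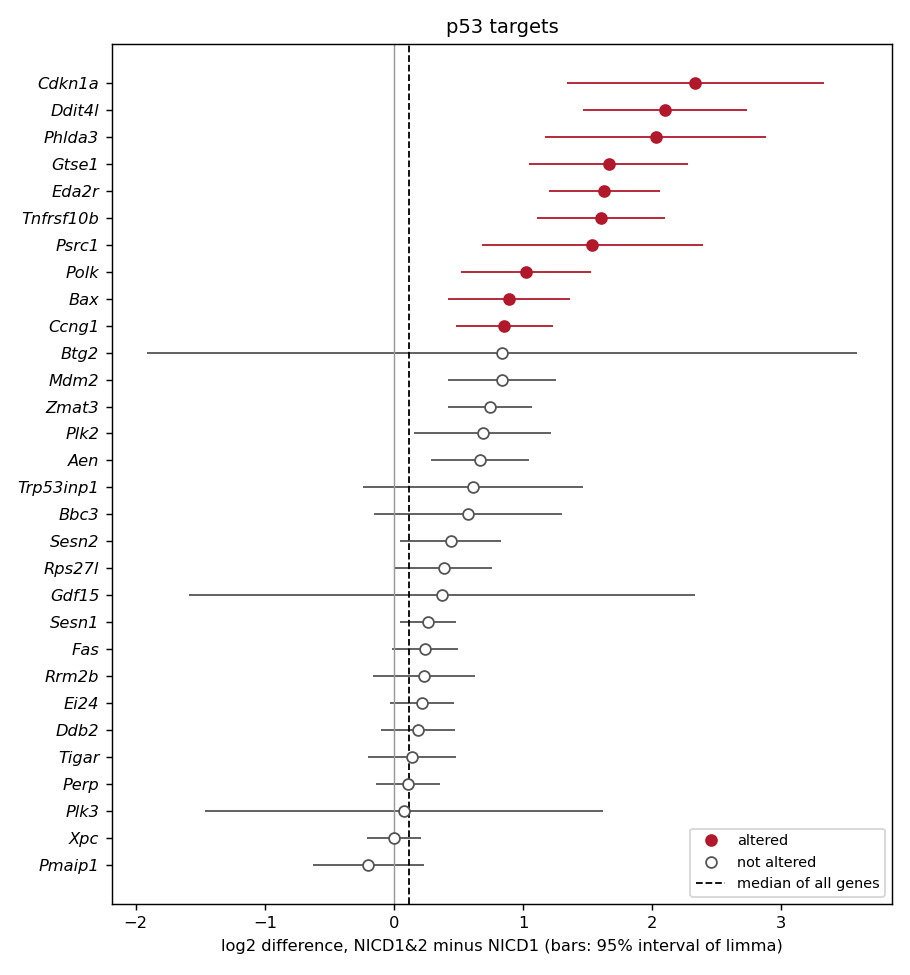
Points give the log2 difference (NICD1&2 minus NICD1) of the 30 p53 targets and bars limma's 95% interval, in red where the gene was altered. The dashed line marks the median of all genes at 0.11, and 29 of the 30 points lie above 0.

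Of the Notch pathway itself, no receptor, ligand or machinery gene was altered (0 of 8 and 0 of 26), with medians of 0.05 and -0.01. Jag1, a ligand, stood at -1.20, -1.06 and -1.06 in NICD1 and -1.47 and -1.32 in NICD1&2 (-0.29 ± 0.12, adjusted p = 0.384). Rbpj differed by -0.02 and a second Rbpj probe by -0.43, and Numb, an inhibitor of Notch, by -0.48 ± 0.19. Of 19 Notch targets tested, 5 were altered and higher, against 1.61% of all genes, and 14 were higher in all, as were 11158 of 16633 genes, with a median of 0.23. The number altered was 3 without NICD1 replicate 1 and 4 without NICD1&2 replicate 1, and 2 after normexp background correction, and quantile normalization added 1 altered and lower member. Nrarp, a feedback inhibitor of Notch, stood at -3.90, -3.83 and -5.20 in NICD1 and -1.86 and -1.85 in NICD1&2 (2.46 ± 0.64, adjusted p = 0.345, and 0.52 after normexp). Hes1, the repressor most often read as a Notch target, stood at -3.12, -1.84 and -2.59 against -1.11 and -1.15 (1.39 ± 0.50, adjusted p = 0.368). Both NICD1&2 arrays were above every NICD1 array for both genes. The inhibitors of DNA binding Id1 and Id3 differed by 1.93 ± 0.40 and 0.96 ± 0.36, and Id2 by 0.68 ± 0.31. Id1 stood at 2.91, 1.42 and 1.53 in GFP and at 3.17 and 2.77 in NICD1&2. Id3 stood at 3.27, 2.94 and 1.92 in GFP and at 3.20 and 2.97 in NICD1&2. Between NICD2 and GFP, Id1, Id3 and Hes1 differed by 0.10, -0.69 and 1.64, and Nrarp was at least 4.65-fold higher in NICD2. Hey1 stood at -2.71, -2.39 and -2.42 against -1.93 and -1.88, a difference of 0.60 ± 0.17 that did not reach the fold threshold. Heyl, Dtx1 and Gata3 differed the other way, by -0.41, -0.59 and -0.68, and none was altered. The remaining altered target was Sox9, which is counted among the bile duct genes too and is given with them below.

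The bile duct genes as a group stood near the median of all genes in their median (0.05 over 27 tested), while 2 of the 27 were altered and higher, against 1.61% of all genes. Sox9, the transcription factor of the duct lineage, stood at -1.67, -1.18 and -1.62 in NICD1 and -0.02 and -1.09 in NICD1&2 (0.93 ± 0.31, adjusted p = 0.359), and a second probe differed by 0.53. It was higher by 1.65 within slide 1, by 0.31 within slide 2 and by 0.40 without NICD1&2 replicate 1. Spp1 (osteopontin) stood at 4.43, 4.89 and 4.45 against 4.95 and 5.28, 0.53 ± 0.22 and not altered. The keratins of ducts, Krt19 and Krt7, differed by 0.22 ± 0.26 and 0.19 ± 0.35, and Epcam, the duct surface marker, by 0.05 ± 0.36. The tight junction gene Cldn4 was well above background on no NICD1 array and on 1 of 2 NICD1&2 arrays (at least 1.67-fold higher).

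Genes of secretory and squamous epithelia held 8 altered members of 30 tested, all higher, against the 1.61% of all genes, while the median of the list was 0.17. The list was chosen with earlier results of these data known, so its count is a description and no test. A few high members thus stood apart from a list that otherwise lay near the rest. Besides Krt79 and Wfdc3, Scgb1a1, the club cell secretory protein of the airway, stood at -2.89, -1.57 and -2.84 in NICD1 and -0.56 and 0.36 in NICD1&2 (2.33 ± 0.46, adjusted p = 0.278). Tmprss7, a membrane serine protease, stood at -3.13, -2.45 and -3.59 against -0.96 and -0.81 (2.17 ± 0.39, adjusted p = 0.235). Both were higher by over 2 within each slide. Pnliprp1, a pancreatic lipase relative, differed by 1.92 ± 0.36. The trypsin inhibitor Spink1 (1.05 ± 0.30), the iron-scavenging lipocalin Lcn2 (1.17 ± 0.54, and 0.78 without NICD1&2 replicate 2) and Bpifb1 (1.05 ± 0.43) were altered as well. The count was 8 after quantile normalization, 5 after normexp, and 7 with 1 lower member without NICD1&2 replicate 2.

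Among cell cycle genes, some G2/M genes were altered and Cdk1 was not. Cdk1, the kinase that drives entry into mitosis, stood at -2.68, -3.02 and -2.51 in NICD1 and -2.86 and -3.87 in NICD1&2. The groups overlapped, and Cdk1 was well above background on 1 of the 2 NICD1&2 arrays. The difference was -0.62 ± 0.31 (SE, adjusted p = 0.432), with an exact two-sided permutation p of 0.3. It was -0.18 within slide 1 and -1.10 within slide 2, and it was -1.13 without NICD1&2 replicate 1 (altered in that case) and -0.12 without replicate 2, so 1 array decided its size. Cdk1 stood at -3.83, -3.34 and -3.76 in GFP and -4.04, -3.66 and -4.23 in NICD2. Of 47 G2/M genes 4 were altered, all higher, against 1.61% of all genes altered and higher, and the median was 0.07. They were Gtse1 and Psrc1, which are p53 targets too, Cenpe, a kinetochore motor near background whose groups overlapped, and Ckap2, a microtubule protein. Ckap2 stood at -2.18, -1.72 and -2.12 in NICD1 and -0.30 and 0.31 in NICD1&2 (2.02 ± 0.26, adjusted p = 0.085). It was higher by 1.89 and 2.23 within the slides. Mki67, the usual proliferation marker, differed by -0.30 ± 0.21. Of 45 S phase genes 1 was altered, Dtl, which was lower with groups that overlapped and was well above background on 1 of the 2 NICD1&2 arrays. The median was 0.09, and 0.619% of all genes were altered and lower. Of 21 cell cycle inhibitors only Cdkn1a was altered, with a median of 0.19. Gadd45g stood at 3.70, 6.30 and 5.76 against 6.43 and 7.36, too spread for its difference of 1.65 ± 1.16 to pass. Among apoptosis genes, Bax and Tnfrsf10b were altered of 31 that promote death, and Bcl2l1, which protects mitochondria, of 17 that oppose it, all higher, against 1.61% of all genes. Bcl2l1 stood at 4.78, 4.99 and 4.79 against 5.63 and 5.84 (0.88 ± 0.15, adjusted p = 0.215).

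The metallothioneins, small proteins that bind zinc and copper, were higher in NICD1&2 but varied within it. Mt2 stood at 2.75, 3.33 and 3.24 in NICD1 and at 6.34 and 4.91 in NICD1&2 (2.51 ± 0.57, adjusted p = 0.322). The brighter Mt1 probe stood at 6.23, 5.60 and 5.68 against 7.58 and 6.85 (1.38 ± 0.41, adjusted p = 0.358), and the dimmer one differed by 2.94 ± 0.82, or 1.94 without NICD1&2 replicate 1. The difference of Mt2 was 3.59 within slide 1 and 1.62 within slide 2. The GFP arrays stood at 4.84, 3.20 and 4.30 for Mt2, and 2 of the 3 lay above every NICD1 array. The 2 altered members stood among 19 metal genes, against 1.61% of all genes altered and higher, and the other 17 held none, among them the ferritins Fth1 and Ftl1 (0.32 and 0.31).

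Genes of liver metabolism and stress are given next, and the altered ones were higher but for 1 fetal liver or liver tumour gene. Over all genes, 1.61% were altered and higher and 0.619% altered and lower. Of 34 genes of fatty acid oxidation 31 were higher, with a median of 0.23. Plin5, which holds lipid droplets to mitochondria, stood at 4.75, 5.19 and 5.07 in NICD1 and 6.10 and 6.12 in NICD1&2 (1.11 ± 0.15, adjusted p = 0.099). Acot1, a cytosolic acyl-CoA thioesterase, stood at 4.39, 4.75 and 4.28 against 5.67 and 5.60 (1.16 ± 0.27, adjusted p = 0.327). Both NICD1&2 arrays were the highest of the 11 for these genes. Pfkfb4, which tunes glycolysis, differed by 1.0 ± 0.21 and the lactate exporter Slc16a3 by 0.89 ± 0.17, of 36 genes of glycolysis and gluconeogenesis (median 0.18). Akr1b7, an aldose reductase relative, stood at -2.83, -2.88 and -2.37 against -1.05 and -0.63 (1.86 ± 0.25, adjusted p = 0.099). It is 1 of 23 fetal liver and liver tumour genes tested, of which 2 were altered and higher and 1 altered and lower. The stress protein Nupr1 differed by 0.91 ± 0.26 and the clock repressor Ciart by 0.87 ± 0.20. The glutathione peroxidase Gpx2 stood at -2.97, -2.77 and -3.07 against -2.46 and -1.45 and differed by 0.98 ± 0.27, but by 0.48 without NICD1&2 replicate 2. None of 42 lipid synthesis genes was altered, and Srebf1, their main activator, differed by -0.71 ± 0.14 (adjusted p = 0.262).

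Of 31 genes that mark the hepatocytes around the central vein, 19 were higher. Their median was 0.09, against 0.11 over all genes, of which 11158 of 16633 were higher. Of the 31, Lgr5, a receptor for R-spondins, was lower. It stood at 0.26, -0.32 and -0.20 in NICD1 and -1.19 and -1.24 in NICD1&2 (-1.13 ± 0.20, adjusted p = 0.226), and the difference was -1.45 and -0.98 within the slides. The transporter Slc22a3 was altered and lower too, with groups that overlapped (-1.16 ± 0.49), and the amino acid transporter Slc1a4 was altered and higher (0.93 ± 0.30). The other 28 genes of this list were not altered, Cyp2e1 (0.33 ± 0.12) among them, and neither was any of the 29 periportal genes. Over all genes, 1.61% were altered and higher and 0.619% altered and lower.

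Of the named genes with the highest differences, some were not well above background in NICD1. Hs6st2, which sulphates heparan chains, was at least 1.71-fold higher and Inka2, an inhibitor of the kinase Pak4, at least 1.74-fold higher, each detected on both NICD1&2 arrays and on no NICD1 array. The Hs6st2 probe was not the brightest tested for that gene. Zbtb16, a zinc finger transcription factor, stood at -0.44, 1.29 and 1.41 in NICD1 and 3.69 and 2.48 in NICD1&2 (2.33 ± 0.67, adjusted p = 0.351), with 4.13 within slide 1 and 1.13 within slide 2.

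For several of the lower genes NICD1&2 replicate 2 set the size of the difference. Slc15a2, a peptide transporter, stood at -1.96, -0.74 and -0.02 in NICD1 and at -2.21 and -6.53 in NICD1&2. It was well above background on 1 of the 2 NICD1&2 arrays. The difference was -0.26 within slide 1, whose NICD1&2 array was the brighter, and -1.31 without replicate 2. A second, dimmer probe differed by -0.20. Dhx38, a splicing helicase, and Dlgap1, a synaptic scaffold, were likewise well above background on 1 of 2 NICD1&2 arrays. They differed by -0.54 and -0.23 within slide 1, and by -0.37 and -0.35 without replicate 2, where neither was altered. A brighter Dhx38 probe differed by -0.01, and a dimmer Dlgap1 probe by -1.23. A probe of Svil, a membrane skeleton protein, stood at -1.97, -2.45 and -1.92 in NICD1 and at -2.79 and -4.47 in NICD1&2, so both were below every NICD1 array, and it differed by -0.82 within slide 1 and -0.68 without replicate 2. The brighter Svil probe differed by -0.82 ± 0.19 (adjusted p = 0.327). Srgap3 stood at -3.16, -3.26 and -3.27 against -4.80 and -5.36, and was at least 1.99-fold lower (adjusted p = 0.085). Hhat, the enzyme that adds palmitate to Hedgehog proteins, stood at -1.95, -1.88 and -2.09 against -3.58 and -3.26 (-1.45 ± 0.23, adjusted p = 0.198). Both were low on both NICD1&2 arrays, but a second Hhat probe differed by 0.04. Samd4, an RNA-binding repressor of translation, differed by -1.37 ± 0.24, and by -0.96 at its second probe (adjusted p = 0.123). A probe of Phldb2, not the brightest tested for that gene, stood at 2.41, 2.06 and 2.16 against 1.49 and 0.07 (-1.43 ± 0.33, and -0.72 without replicate 2). Olfr1031, Gm32569 and Unc93a2 were detected on no NICD1&2 array, at least 1.34-fold, 2.04-fold and 1.53-fold lower, and Adcyap1r1, a neuropeptide receptor, was detected on none either. The probes of Unc93a2 and Adcyap1r1 were not the brightest tested for their genes. Without replicate 2 neither Unc93a2 (-0.68) nor Adcyap1r1 (-0.55) was altered.

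Genes of immune and other cells were measured too, and their counts stand against the 1.61% of all genes that were altered and higher. Of 33 macrophage and neutrophil genes 27 were higher (median 0.27), and Marco, a scavenger receptor, was altered, at 2.21, 2.16 and 2.62 in NICD1 and 4.49 and 2.96 in NICD1&2, with a difference of 1.39 that was 0.63 without NICD1&2 replicate 1. Marco stood at 3.80, 2.32 and 3.53 in GFP. The Kupffer cell marker Clec4f differed by 0.28 ± 0.17. Acute phase genes were higher in 27 of 30 (median 0.34), with Saa2 (0.91 ± 0.55) and Lcn2 altered, and Saa2 ran from 6.09 to 8.51 within the GFP arrays alone. Saa2 no longer met the definition without GFP replicate 3, without NICD1 replicate 1 or 3, or without any 1 NICD2 array. Lcn2 stood at 1.61, -0.60 and 0.94 in GFP and at 0.76 and 1.55 in NICD1&2. No interferon response gene, lymphocyte gene, stellate cell gene or sinusoidal endothelial gene was altered, of 36, 35, 28 and 30, and neither was any of 31 immediate early genes (median 0.34) or 22 cytokines and chemokines (median 0.22). Red blood cell genes were higher in 9 of 9 with a median of 0.46 (0.08 within slide 1, 0.91 within slide 2) and none altered, and Hbb-b1, a globin, stood at 2.11, 2.29 and 2.00 against 2.42 and 3.40. All 11 exocrine pancreas genes were higher (median 0.38), with Pnliprp1 altered, and Reg1 altered at levels that no array of either group had well above background. The defining pancreas markers Cela2a and Ctrb1 differed by 0.16 ± 0.23 and 0.27 ± 0.19, and the pair summed to between 1.64 and 1.92 in NICD1 and to 2.02 and 2.03 in NICD1&2. In a whole liver sample, more cells of a type and more RNA per cell cannot be told apart, and the part of these cells in the other differences was not tested.

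**Figure D4:**
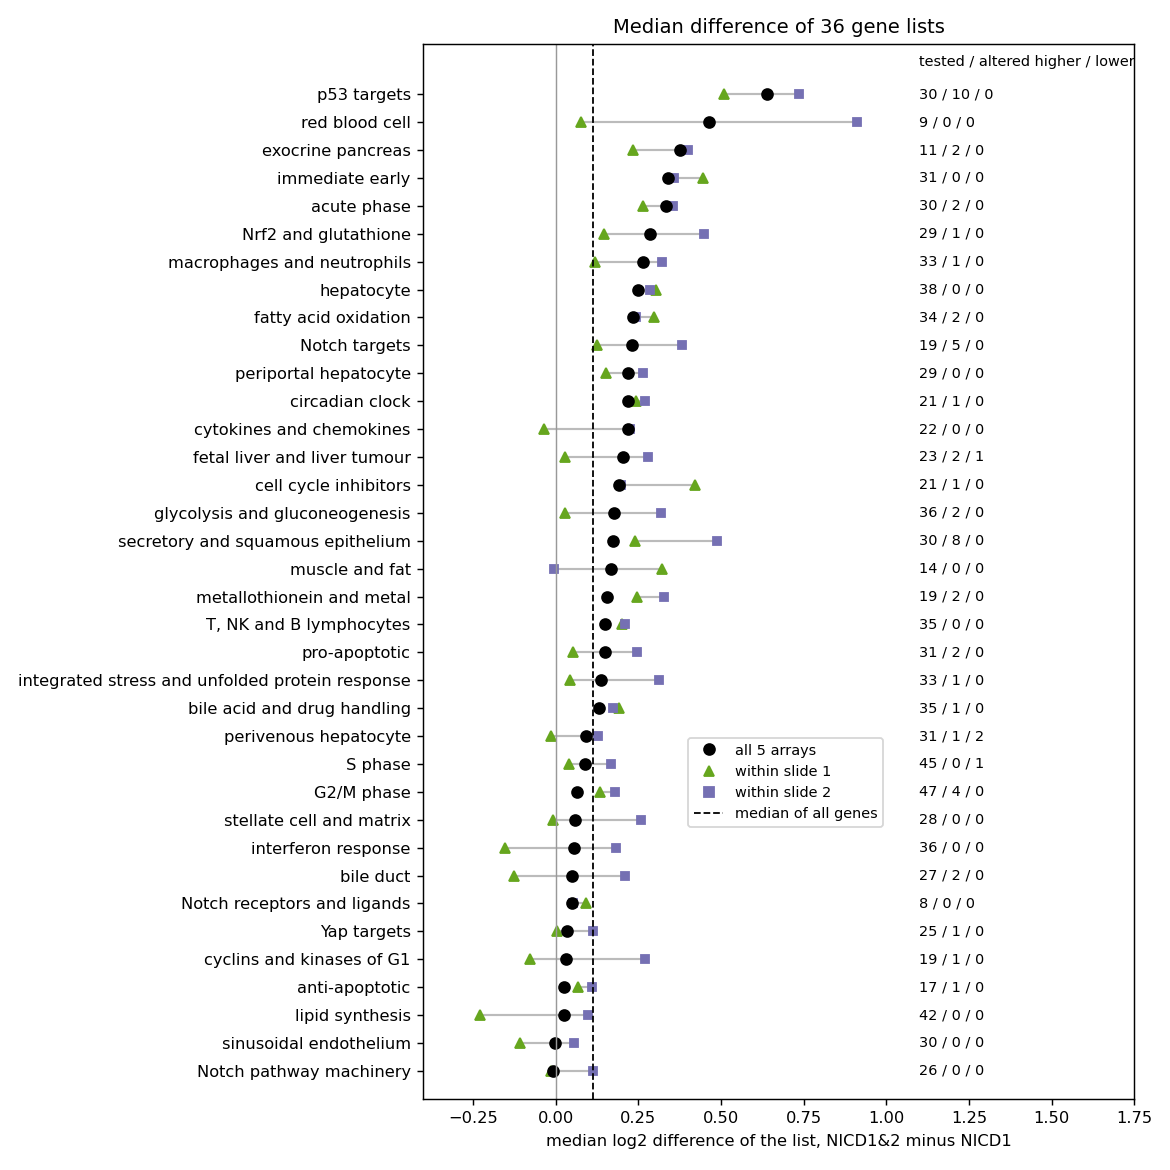
Black points give the median log2 difference (NICD1&2 minus NICD1) of each of 36 gene lists over all 5 arrays, triangles and squares the same within slide 1 and slide 2, and the dashed line the median of all genes (0.11). The p53 targets have the highest median, 0.64, and at right stand the genes tested, altered and higher, and altered and lower.

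NICD2 was also added without NICD1, in the 3 NICD2 and 3 GFP arrays, none of which is in the comparison above. There 19 probes passed the adjusted threshold (0.0527%), 16 of them higher. For those 19, the difference between NICD1&2 and NICD1 had the same sign in 17, against 55.2% of all 36055 probes, and it was altered in 12, against 2.7% of all probes. Of the 19, 13 were well above background on an array of each of the 4 groups, a choice made after seeing the data. Their median size was 2.0 against GFP and 1.0 against NICD1, and it was smaller against NICD1 in all 13. The 19 were picked by their difference from GFP, so the order of these sizes is a description. Over all 36055 probes the differences correlated at r = 0.165, and at 0.246 over the 14135 with a mean level above 0. The correlation was 0.152 within slide 1 and 0.053 within slide 2, and it was 0.045 without GFP replicate 1. Of the 714 probes altered in NICD2 against GFP (1.98%), 129 were altered in NICD1&2 against NICD1 too (18.1% of the first set, against 2.7% of all probes), and 65.4% of the 714 had the same sign, against 55.2% of all probes.

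For several of these genes the level in NICD1 was already above that in GFP. Wfdc3 stood at -4.23, -3.77 and -4.35 in GFP, at -1.24, -0.95 and -1.14 in NICD1, and at 0.80, 1.0 and 1.18 in NICD2. Its NICD1&2 arrays, at 0.89 and 1.51, lay at about the level of NICD2 alone. Scgb1a1 followed the same order, with differences of 3.77 between NICD2 and GFP and 2.33 between NICD1&2 and NICD1. Tmprss7 and Pnliprp1 were well above background on no GFP array, so NICD2 was at least 11.9-fold and 5.43-fold higher than GFP for them, and their differences between NICD1&2 and NICD1 were 2.17 and 1.92. Krt79 stood at -3.21, -2.82 and -3.25 in GFP and at 0.80, 0.61 and 0.97 in NICD2, with the NICD1 arrays just above GFP, and the differences were 3.89 and 2.85. Pfkfb4 stood at -2.51, -2.98 and -2.62 in GFP and at -0.83, -0.32 and -1.06 in NICD1, and its difference was 2.83 with NICD2 on GFP and 1.0 on NICD1. The antimicrobial peptide Defb1 gave 2.05 and 1.26, the axon guidance factor Sema5a 2.00 and 0.95, and Spp1 1.81 and 0.53. Slc10a6, a sulphated steroid transporter, was well above background on no GFP or NICD1 array, and was at least 2.04-fold higher with NICD2 on GFP and at least 1.63-fold higher with NICD2 on NICD1. Prelp, a matrix proteoglycan, gave 0.87 and 0.61 by a probe that was not the brightest tested for it. Of the lower genes, the phosphatase Dusp10 was well above background on no array with NICD2, and was at least 2.91-fold lower against GFP and at least 1.44-fold lower against NICD1. The lymphoid transcription factor Ikzf3 was at least 1.26-fold lower with NICD2 against GFP. Its probe, not the gene's brightest, was well above background on no NICD2 or NICD1&2 array and on 1 of 3 NICD1 arrays. No fold is therefore given on NICD1. Vasn, which binds TGF-beta, and Eva1c gave 1.06 and 0.96 against GFP but -0.18 and -0.26 against NICD1. The differences of these pairs were tested for every probe by the interaction, (NICD1&2 minus NICD1) minus (NICD2 minus GFP). No probe passed an adjusted p of 0.05 in it (limma), the lowest adjusted p was 0.144, for Wfdc3 at -2.80 ± 0.31, and 2536 had an unadjusted p under 0.05. The p53 targets had a median of 0.19 in NICD2 against GFP with 2 altered, both higher, where 1.14% of all genes were altered and higher, beside 0.64 and 10 in NICD1&2 against NICD1. The medians of 0.19 and 0.64 were not tested against each other. In NICD1 against GFP the median of the p53 targets was -0.21, and in NICD1&2 against GFP it was 0.42. Over all genes those medians were 0.002 and 0.12.

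**Figure D5:**
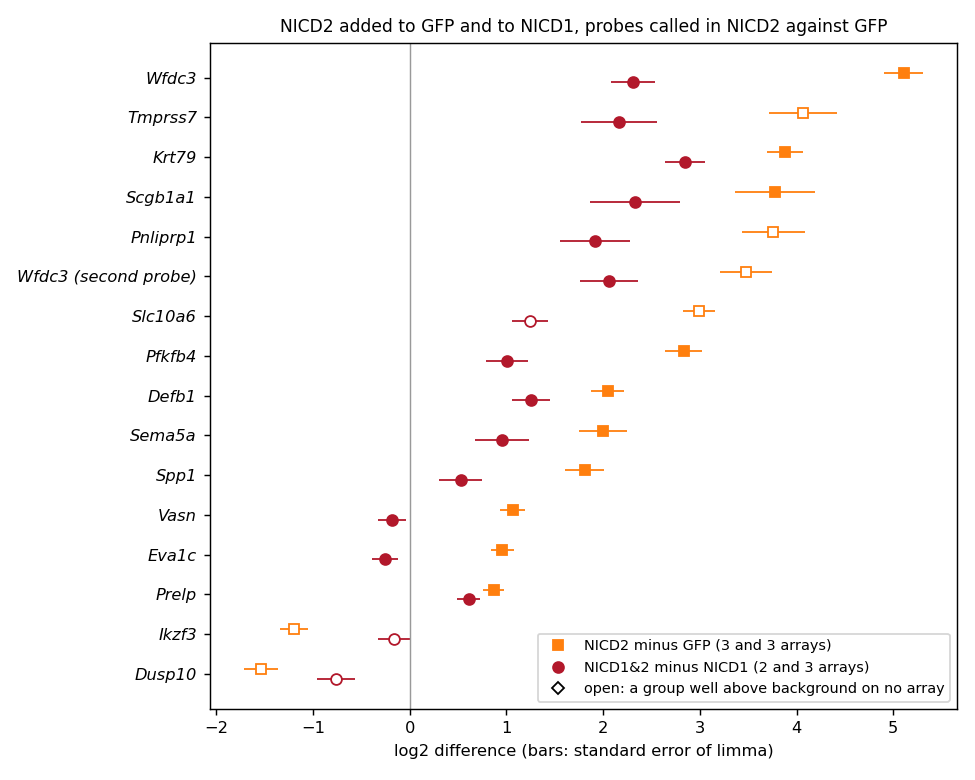
Squares give the log2 difference of NICD2 from GFP and circles that of NICD1&2 from NICD1, with limma's standard errors, for the named probes called in NICD2 against GFP. Open symbols mark a comparison in which a group had the probe well above background on no array, so that the distance is only measured signal. Among probes with filled symbols the circle lies nearer to 0 than the square, and for Vasn and Eva1c it lies on the other side of 0.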

How the data were processed

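Liver RNA of 11 mouse samples was hybridised to 1-colour Agilent arrays (62976 spots, 3671 of them controls), read with Agilent's Feature Extraction software, whose processed signal intensity the authors deposited for each array. The authors also deposited a table of log2 values, which equals log2 of that signal minus the array's 75th percentile (at least 99.977% of values within 0.01 of the median difference on each array). From the deposited processed signals, the spots of a probe were averaged without control and outlier spots, log2 was taken and each array's 75th percentile subtracted. No spot was saturated. Between 57.0% and 62.0% of spots were well above background on an array, and the number of arrays limits the precision. A probe entered the tests where 2 or more arrays of the series had it well above background. Tests used limma 3.58.1 (R 4.3.3), 1 mean per group over all 11 arrays, since the study gives the normalization and its definition of a changed gene for comparisons with GFP (P under 0.15 and fold over 1.8, here called altered), and names several tests between groups but not which one the arrays had. Called means an adjusted p (Benjamini-Hochberg) under 0.05 over all 36055 probes.

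A bound fold ("at least") sets the brighter group's mean against the dim group's, each dim array taken at the higher of its lowest signal well above background and the probe's own. Lists held 1 probe per gene, the one with the highest mean over the 11 arrays. Counts over lists stand beside the share of all genes altered, with no set test. Genes were named by rule. The rule took Cdk1, Cdkn1a, Notch1 and Notch2, every called probe, the 12 highest and 12 lowest altered genes whose groups do not overlap and that were well above background on every array of the higher group, altered list members whose groups do not overlap, genes called in NICD2 against GFP, defining markers of other cell types, and list members as examples. The members and lists were chosen with earlier results of these data known. The p53 half-site, the counts of lists under each setting and the 13 probes detected in each group were chosen after seeing the data. Gene names are RefSeq symbols, matched through the transcript that the array annotation gives for each probe, and a probe without a match has no name. Files name the mm9 build for the array, so promoter sequences come from RefSeq on GRCm38.p6 by gene symbol and no array coordinate is used with them. Alternatives were other normalizations, background correction, filters, the deposited table, the 5 arrays alone, an unmoderated model, array weights, slide and replicate number as blocks, and each array left out. The fit was tested on simulated data. Figures were drawn with matplotlib 3.10.9.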

Additional observations from a re-analysis of the deposited data

How the results depend on the processing

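Both counts and the sizes of dim probes moved with the processing. The probes altered numbered 82 after normexp background correction with quantile normalization, 2745 with no filter on background and 273 when every array had to be well above it. They numbered 392 at P under 0.05 with fold over 2, and 24 at an adjusted p under 0.15 with fold over 1.8, and they held 521 distinct gene names. The probes called numbered 3 after quantile normalization, 51 after normexp, 1 with no filter, 10 with the filter on every array, 1 with array weights and 8 with slide as a block. None was called with the 5 compared arrays alone, in the unmoderated model or with the replicate block, where 3590, 4676 and 3777 probes had an unadjusted p under 0.05 (limma). Leaving out each array in turn gave 945 to 2087 altered and 0 to 205 called. In the interaction 1 probe was called with the filter on every array and 0 to 12 without 1 array, 12 without NICD1&2 replicate 1 and 1 without NICD2 replicate 3. The correlation between the differences was 0.0533 within slide 2, 0.224 after normexp and 0.0991 with no filter, and 0.0452 to 0.242 without 1 array. Cdk1 differed by -1.10 within slide 2 and by -1.13 to -0.12 without 1 array, and Cdkn1a by 1.87 to 2.61. Among the 62 altered probes of named genes other than Cdk1 and Cdkn1a, 38 no longer met the definition after normexp with quantile normalization, which took Hs6st2 from 2.99 to 0.30, Inka2 from 2.09 to 0.14, Nrarp from 2.46 to 0.52, Slc10a6 from 1.25 to 0.11 and the Kdm4a probe from -1.81 to -0.17. It was 15 without NICD1&2 replicate 2, and at most 7 under any other setting that kept the probe. The cause of these moves was not tested.

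Replicate numbers are shared between the groups in the labels, but residuals of NICD1 and NICD1&2 arrays of the same number correlated at only 0.0537 and 0.120, so the numbers were not taken to pair the samples. With the replicate block the altered probes numbered 1146, Cdk1 differed by -0.65 and Cdkn1a by 2.28. Some uncalled differences changed sign. Those were Alb (-0.0260 after quantile normalization), Hnf4a (0.0124 within slide 1), Cd79a (-0.00485 after normexp), a probe of Ikzf3 (0.0984 within slide 1), Alas2 (-0.119 within slide 1, -0.0363 after quantile normalization), Krt19 (-0.127 within slide 1, -0.0869 to 0.534 without 1 array, lowest without NICD1&2 replicate 2) and Adipoq (-0.205 within slide 2, -0.0913 to 0.495 without 1 array, lowest without NICD1&2 replicate 1). Notch1 was higher within slide 1 (0.541), and ran from -0.455 to 0.328 without 1 array, above 0 without NICD1 replicate 3 or NICD1&2 replicate 2. Epcam was lower within slide 1 (-0.0908), after quantile normalization (-0.0618) and with the percentile over probes detected on every array (-0.0224), and ran from -0.0162 to 0.117 without 1 array, below 0 without NICD1 replicate 3 or NICD1&2 replicate 2. The signal gives only a bound where no array of the dimmer group was well above background, as for 202 of the 569 higher and 262 of the 406 lower altered probes.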
